A study of Mus musculus with 25 samples.

Results

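Nuclear-encoded subunits of the mitochondrial respiratory chain and of ATP synthase were followed in the RNA of sorted mouse CD4 T cells. Members were the protein-coding rows of the count table with symbols beginning Ndufa, Ndufb, Ndufc, Ndufs or Ndufv (complex I), with Sdha to Sdhd (complex II), with Uqcr (complex III), with Cox4i, Cox5, Cox6, Cox7 or Cox8 (complex IV), with Atp5 (ATP synthase), or named Cycs. Assembly factors of the Ndufaf type, 12 pseudogene rows and the genes of the mitochondrial genome itself were left out. Genes with other symbols, Cyc1 among them, did not match the rule, so complex III here means the Uqcr genes. This gave 90 genes of 46078: 38 for complex I, 4 for complex II, 8 for complex III, 18 for complex IV, 17 for ATP synthase and the cytochrome c gene Cycs. The other 4 were Sdhaf1, Sdhaf2, Sdhaf3 and Sdhaf4, complex II assembly factors that match the rule by their first letters and were counted apart. Of the 90, 82 had enough counts to be tested, among 14703 genes tested in all.

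The cells came from C57BL/6NTac mice of 3 genotypes, labelled wild-type (wt), miR-150 knock-out (ko) and miR-150 knock-in (ki). Each genotype was sampled naive and at day 7 of EAE (experimental autoimmune encephalomyelitis), a disease that immunization provokes in mice and that models multiple sclerosis. The wt day 7 group had 5 libraries and the other 5 groups had 4 each, 25 in all. The study asked how miR-150, a microRNA abundant in resting lymphocytes, acts in CD4 T cells during EAE. The labels do not say how the knock-in allele is driven, in which cells the knock-out acts or the age or sex of the mice. They also do not say that replicate libraries are separate mice, so each p-value rests on a spread between samples that may be technical.

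The respiratory chain passes electrons from NADH (complex I) and succinate (complex II) through ubiquinone, complex III and cytochrome c to oxygen at complex IV, and ATP synthase uses the proton gradient that complexes I, III and IV build. Most subunits are encoded in the nucleus and imported, and a few core subunits of complexes I, III, IV and ATP synthase are encoded by mitochondrial DNA. Resting T cells draw much of their ATP from oxidative phosphorylation, and activated T cells raise glycolysis and expand their mitochondria as they divide. Promoters of many nuclear subunit genes hold sites for nuclear respiratory factor 1 (NRF-1), for the ETS-family factor GABP (also called NRF-2) and for YY1.

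Libraries held 6024043 to 49489134 counts (median 16312725), and the wt naive ones were shallow, at 6024043 to 9351180. The members received 17440 to 125006 counts per library. Mir150 gave 0 counts in all 8 ko libraries and 9.08 to 29.2 CPM in the 17 wt and ki libraries. CPM here are counts per 1e6 counts of the library on tested genes, scaled by TMM. The ko libraries thus matched their label, and the ki libraries were not set apart from wt by this gene. The 10 CD4 T cell markers summed to 2606 to 2921 CPM over all libraries, the 7 B cell markers to 1.25 to 20.4 CPM and the 7 myeloid markers to 4.10 to 19.1 CPM. The third ko day 7 library stood apart, with the greatest depth, 32.4% of its counts on ribosomal-RNA-like genes (the highest share) and a weight of 0.144 where limma weighted libraries by their fit. In sorted bulk RNA, a change in the mix of cells and a change of RNA per cell cannot be told apart.

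Levels ranged widely between members. They are given here, for comparison between genes, as CPM scaled by TMM, per kb of merged exons, as the mean of the 6 groups with the SD over 25 libraries. ATP synthase held the most abundant member, Atp5a1, the catalytic-ring alpha subunit, at 78.5 ± 4.36 CPM per kb, followed by Atp5h, a stator subunit, at 63.4 ± 5.71. It also held the least abundant tested member, Atp5s, at 0.909 ± 0.276. In complex IV, Cox7a2l, which takes part in joining complexes III and IV, was at 53.8 ± 5.76 and Cox4i1, which binds the mitochondrially encoded core, at 40.9 ± 4.63, while Cox5a was lowest at 5.35 ± 1.06. In complex III, Uqcrh, the hinge protein, was at 48.1 ± 9.22 and Uqcrb at 29.2 ± 4.21, with Uqcr11 lowest at 11.1 ± 2.06. The members of 1 complex thus differed severalfold in RNA level.

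In complex II, where every subunit is nuclear-encoded, the flavoprotein Sdha was at 35.5 ± 2.08 CPM per kb, the iron-sulfur subunit Sdhb at 13.6 ± 1.39, and the membrane anchors Sdhd and Sdhc at 11.4 ± 1.70 and 5.21 ± 0.561. The libraries of Sdha (32.0 to 39.8) did not overlap those of Sdhb (11.1 to 17.1), whereas Sdhb and Sdhd overlapped (Sdhd 6.11 to 14.4). Of its assembly factors, Sdhaf1 was at 4.67 ± 1.11, Sdhaf2 at 3.32 ± 0.300 and Sdhaf3 at 0.990 ± 0.272. Complex I ran from Ndufa2 at 32.1 ± 6.78 and Ndufb10 at 27.9 ± 3.37 down to Ndufb2 at 1.34 ± 0.279. Cytochrome c, the mobile carrier between complexes III and IV, was at 6.61 ± 1.03, by its mean below the lowest of the Uqcr genes. Divided by the length of the longest coding transcript instead, levels were higher and their order changed: Atp5h stood at 136, Uqcrh at 109 and Atp5a1 at 92.0 CPM per kb. Which transcripts the cells used was not measured, so an order between genes holds only for the length it names.

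**Figure D1:**
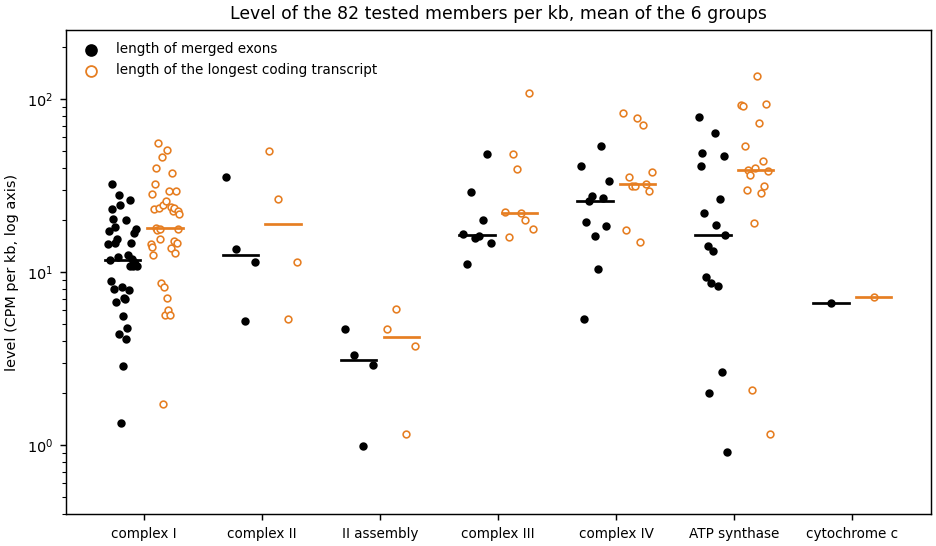
Level of each of the 82 tested members (y axis, CPM per kb on a log axis, mean of the 6 groups) by complex (x axis), with filled points for the length of merged exons, open points for the longest coding transcript, and bars at the medians. The median per complex is highest for complex IV with merged exons (25.7 CPM per kb) and for ATP synthase with the longest transcript (38.8 CPM per kb).

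The 8 untested members were isoforms known mainly from other tissues or states. Cox7b2, Cox8b and Cox8c had 0 counts in all 25 libraries. The highest count in any library was 2 for Cox4i2 (the lung and hypoxia form), 2 for Cox6a2 (the heart and muscle form), 3 for Ndufa4l2, 7 for Cox6b2 (the testis form) and 11 for Cox7a1 (the heart and muscle form). Cox4i1 accounted for 99.9% to 100% of the Cox4i level per kb in the group means, and Cox6a1 for 99.9% to 100% and Cox6b1 for 99.7% to 100% of theirs. In the Cox7a family Cox7a2l took 82.5% ± 3.20 (SD, n = 4) in wt naive and 82.9% ± 4.36 (SD, n = 5) in wt day 7 libraries, and Cox7a2 took 17.4% and 17.0%. The c-ring of ATP synthase has 3 genes that encode the same mature protein: Atp5g3 took 52.7% to 59.6% of their level over the 6 groups, Atp5g2 33.1% to 38.6% and Atp5g1 6.89% to 9.85%. With the longest transcript as length, Atp5g3 took 62.8% to 68.7% and Atp5g1 2.75% to 4.04%, the same order at its ends.

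Between naive and day 7 cells, subunit RNA differed little. Summed over all members, day 7 stood 6.5% above naive in wt, 3.13% in ko and 4.83% in ki libraries, with overlapping libraries in each genotype. Complexes III and IV showed the widest gaps of the 5 complexes in each genotype, and complex II subunits the narrowest or a gap the other way. Complex III summed to 246 ± 11.1 CPM (SD, n = 4) in wt naive and 281 ± 22.4 (SD, n = 5) in wt day 7 libraries, 14.1% higher. The gap was 3.68% in ko cells (255 ± 9.39 to 264 ± 16.9, n = 4 each) and 9.80% in ki cells (253 ± 11.2 to 278 ± 11.4, n = 4 each). Complex IV stood 13.4%, 8.04% and 9.91% higher at day 7 in wt, ko and ki cells, ATP synthase 5.63%, 2.66% and 3.67%, and complex I 2.79%, 2.31% and 4.23%. Complex II subunits differed by 1.72%, -0.597% and -3.43%. These are descriptions with no test, and naive and day 7 libraries overlapped in every one of these sums.

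**Figure D2:**
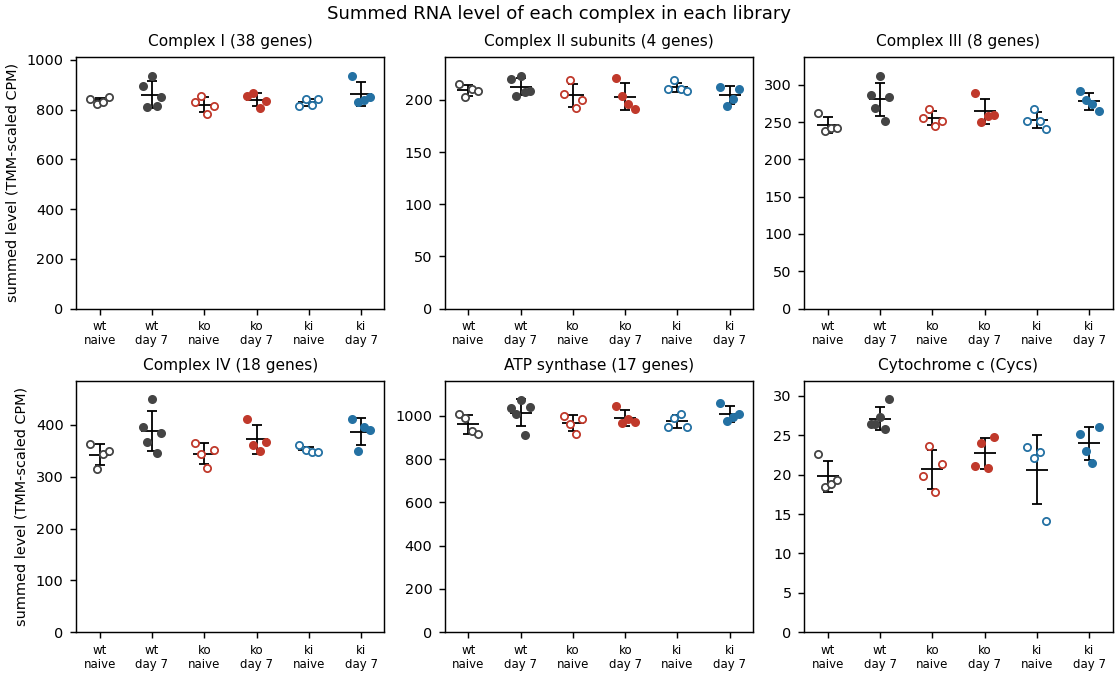
Summed level of each complex (y axes, TMM-scaled CPM, from 0) in each library, by genotype and stage (x axes), with open points for naive and filled points for day 7 and bars for the mean ± SD. The naive and day 7 points overlap in every panel apart from Cycs in wt cells, where 18.4 to 22.6 CPM lies below 25.8 to 29.6 CPM.

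Tested gene by gene over the mean of the 3 genotypes (edgeR quasi-likelihood test, 25 libraries, adjusted over all genes tested, call at an adjusted p under 0.05), 10 of the 82 tested members rose by day 7 and 0 fell. Over all genes tested 6.16% were called higher and 5.06% lower, beside 12.2% and 0.0% of the members. That background holds genes of all lengths. Among other protein-coding genes of at most 1000 bases 17.9% were called higher, against 7 of 44 members of that length (15.9%), a near share. Cytosolic ribosomal protein genes, most of which rose (given below), were not taken out of these other genes. At an unadjusted p under 0.05, 22 members were higher (26.8%, against 12.9% of all genes) and 1 lower (against 11.5%). Counting both directions, edgeR called 12.2% of the members and 11.2% of all genes. DESeq2 called 13 of 82 members where it called 12.3% of all genes. Limma voom called 8 of 82 where it called 9.82%, a share of the members near that of all genes. By complex the 10 were 3 of 37 in complex I, 0 of 4 complex II subunits, Sdhaf1 among its 4 assembly factors, 2 of 8 in complex III, 2 of 11 in complex IV, 1 of 17 in ATP synthase, and Cycs. The sign was positive for 59 of 82 members with a median log2 fold change of 0.09, against 49% positive and a median of -0.004 over all genes tested. All 11 tested complex IV subunits and 7 of 8 in complex III had a positive sign, against 23 of 37 in complex I, 14 of 17 in ATP synthase and 1 of 4 in complex II. These signs were not adjusted for transcript length, which is taken up below. With a length trend removed, 50 of 82 members had a positive sign. In that fit Cox5a and Cox7b of complex IV were negative (-0.02 and -0.006), and its other subunits stayed positive. The changes were small, between 1.14-fold and 1.32-fold for the 10 genes that rose. Without the third ko day 7 library 11 members were called.

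**Figure D3:**
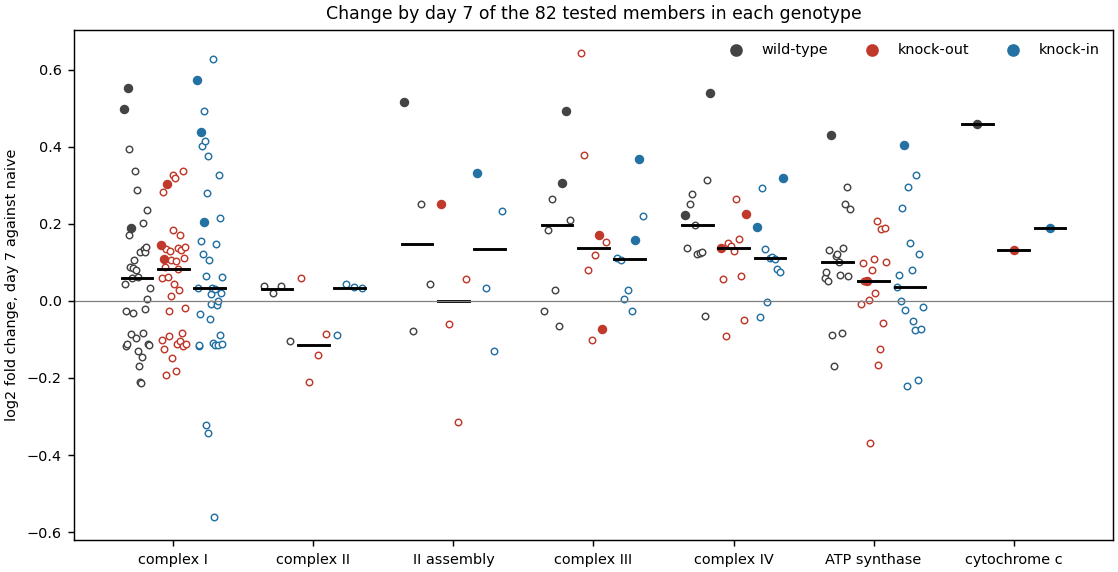
Log2 fold change of day 7 against naive (y axis) of each tested member, by complex and genotype (x axis), with bars at the medians and filled points for the 10 members called over the mean of the 3 genotypes, not within the genotype shown. Medians of complexes III and IV lie at 0.20 in wt cells, against 0.06 for complex I and 0.03 for complex II subunits.

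Cycs (ENSMUSG00000063694, chromosome 6, 50562563 to 50566538 in mm10) was among the members with the clearest separation. It stood at 22.6, 18.4, 18.8 and 19.3 CPM in the wt naive libraries and at 26.4, 26.4, 27.4, 25.8 and 29.6 CPM at day 7, so every wt day 7 library was above every wt naive library. In ko cells it was at 19.8, 23.7, 17.8 and 21.3 CPM naive and 21.1, 24.0, 20.9 and 24.8 CPM at day 7, and in ki cells at 23.5, 22.1, 22.9 and 14.1 naive and 25.2, 23.0, 21.5 and 26.1 at day 7. Stages overlapped in both of these genotypes, and 1 low ki naive library sat far below the other 3. Over the genotypes the log2 fold change was 0.26 ± 0.07 (SE; edgeR adjusted p = 0.0136), a rise of 1.2-fold. Within wt cells alone it was 0.46 ± 0.12 (adjusted p = 0.0382), 1.37-fold. That wt call was lost on leaving out any of 6 of the 9 libraries (naive 2, 3 and 4, day 7 1, 3 and 5; adjusted p up to 0.130), and with a block on sets of 4 library numbers (0.0726).

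In complex III, the hinge protein gene Uqcrh (ENSMUSG00000063882, chromosome 4, 116066965 to 116075071) was at 47.7, 48.5, 51.1 and 52.7 CPM in wt naive and 73.9, 55.3, 87.8, 65.6 and 67.4 CPM in wt day 7 libraries. The wt stages did not overlap. In ko cells the naive libraries were at 61.5, 53.8, 61.5 and 54.5 CPM and the day 7 libraries at 64.5, 50.8, 53.9 and 50.4 CPM, overlapping and with the lower mean at day 7. In ki cells it was at 55.6, 62.6, 50.8 and 47.2 CPM naive and at 78.5, 86.2, 56.2 and 58.9 CPM at day 7, again overlapping. Its log2 fold change was 0.26 ± 0.07 over the genotypes (SE; edgeR adjusted p = 0.0167) and 0.49 ± 0.12 in wt cells (adjusted p = 0.0301, 1.41-fold). The wt call was lost without any of the 4 naive libraries or without day 7 library 1 or 3 (adjusted p up to 0.104). It was also lost with a trend on transcript length removed (edgeR adjusted p = 0.0549), though not with GC content removed too (0.0489). Uqcrfs1, the Rieske iron-sulfur protein, moved less but more evenly: 24.5 ± 1.67 to 30.3 ± 1.99 CPM in wt (SD, n = 4 and 5), 24.8 ± 3.20 to 28.0 ± 2.20 in ko and 26.2 ± 2.03 to 29.4 ± 2.36 in ki cells (n = 4 each). Its log2 fold change of 0.21 ± 0.05 (edgeR adjusted p = 0.0117) was positive in each genotype, at 0.31, 0.17 and 0.16.

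In complex IV, Cox8a (ENSMUSG00000035885, chromosome 19, 7215153 to 7217616), a small subunit, was at 16.8, 17.6, 17.6 and 16.1 CPM in wt naive libraries and at 29.5, 23.7, 33.0, 17.5 and 19.6 CPM in wt day 7 libraries. The wt stages overlapped through 1 day 7 library at 17.5, and the day 7 spread was the wider. Its means were 19.1 ± 2.71 and 22.3 ± 2.87 CPM in ko and 18.9 ± 1.6 and 23.5 ± 3.92 CPM in ki cells (SD, n = 4 each), and the log2 fold change over the genotypes was 0.36 ± 0.09 (SE; edgeR adjusted p = 0.00874). Cox4i1 was at 60.1 ± 4.88 and 70.0 ± 6.30 CPM in wt, 59.3 ± 8.08 and 65.3 ± 7.95 in ko, and 58.7 ± 3.78 and 67.0 ± 5.64 in ki cells. Its log2 fold change was 0.18 ± 0.06 (edgeR adjusted p = 0.0309), and the call ended without wt naive library 2, ko day 7 library 1, ki naive library 3 or 4, or ki day 7 library 1. Cox4i1 forms the dominant Cox4i isoform described above, and Cox8a is the Cox8 gene with counts in these libraries.

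Complex I contributed 3 accessory subunits. Ndufa2 was at 12.1, 14.8, 16.9 and 16.1 CPM in wt naive libraries, and the wt day 7 libraries ran from 19.6 through a median of 20.95 to 27.1 CPM. The wt stages did not overlap. The ko means were 17.6 ± 2.49 and 19.0 ± 3.67 CPM and the ki means 15.5 ± 2.71 and 21.1 ± 4.22 CPM (SD, n = 4 each), and the log2 fold change was 0.37 ± 0.09 (edgeR adjusted p = 0.00801), the smallest p among members. Ndufa6 was at 27.8, 29.1, 26.9 and 29.3 CPM in ko naive and at 35.8, 31.8, 38.9 and 32.6 CPM in ko day 7 libraries. For this gene it was the ko stages that did not overlap, while the wt day 7 libraries (26.9 to 41.2 CPM) spanned the wt naive ones (30.3 to 32.2 CPM). Its log2 fold change was 0.23 ± 0.06 (edgeR adjusted p = 0.0170). Ndufa1, the least abundant of the 10 in CPM, was at 4.77 ± 0.684 and 6.79 ± 1.43 CPM in wt (n = 4 and 5), 6.55 ± 0.673 and 7.23 ± 2.02 in ko, and 4.42 ± 0.673 and 6.65 ± 1.67 in ki cells (n = 4 each). It had the largest fold of the 10 (log2 0.41 ± 0.12, edgeR adjusted p = 0.0321), and the call ended on leaving out any of 8 libraries (wt naive 1, 2 and 4, ko naive 1, ko day 7 1, ki naive 1 and 4, ki day 7 1).

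Atp5e, the epsilon subunit of the ATP synthase stalk, was at 9.89, 14.6, 14.7 and 14.1 CPM in wt naive and at 15.3, 16.3, 17.8, 18.8 and 21.8 CPM in wt day 7 libraries. Its wt stages did not overlap, and the first naive library was the lowest by far. Means were 16.1 ± 3.62 and 16.6 ± 3.27 CPM in ko and 14.7 ± 1.78 and 19.3 ± 2.34 CPM in ki cells (SD, n = 4 each), with a log2 fold change over the genotypes of 0.30 ± 0.09 (SE; edgeR adjusted p = 0.0339). Leaving out any of 9 libraries, the third ko day 7 library among them, ended that call (wt naive 1, wt day 7 5, ko naive 2 and 3, ko day 7 3, ki naive 1 and 2, ki day 7 1 and 4). The next ATP synthase subunit by p, Atp5d, missed the threshold at 0.14 ± 0.05 (adjusted p = 0.0514). Atp5g1, the least abundant c-ring gene, had the lowest value of the members at -0.25 ± 0.10 (adjusted p = 0.105), beside 0.13 ± 0.07 for Atp5g3 and 0.16 ± 0.10 for Atp5g2 (adjusted p = 0.235 and 0.337). Its share of the c-ring level per kb was 9.39% ± 1.54 and 7.86% ± 1.04 in wt (n = 4 and 5), 9.22% ± 0.820 and 6.89% ± 1.51 in ko, and 9.85% ± 1.09 and 7.42% ± 0.560 in ki cells (n = 4 each).

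Complex II subunits did not pass the test. Over the genotypes the log2 fold change was 0.003 ± 0.03 for Sdha, -0.05 ± 0.06 for Sdhb, -0.02 ± 0.07 for Sdhc and -0.05 ± 0.10 for Sdhd (SE; smallest edgeR adjusted p = 0.689). Sdha was at 149, 157, 150 and 153 CPM in ki naive and 142, 141, 142 and 148 CPM in ki day 7 libraries, so its ki day 7 libraries all lay below the naive ones (adjusted p = 0.549). In wt cells it was at 148 ± 6.74 and 152 ± 8.17 CPM, the other way. Sdhaf1, which helps to place the iron-sulfur clusters of Sdhb, rose by 0.37 ± 0.11 over the genotypes (edgeR adjusted p = 0.0355), from 9.90 ± 1.65 to 14.1 ± 3.26 CPM in wt, 10.3 ± 3.33 to 12.3 ± 3.02 in ko and 10.3 ± 0.804 to 12.9 ± 1.44 in ki cells. This call ended on leaving out any of 11 libraries (wt naive 2, wt day 7 1 and 3, ko naive 2, 3 and 4, ko day 7 1 and 4, ki naive 2 and 4, ki day 7 1; adjusted p up to 0.0704). Sdhaf4 stood at 0.11 ± 0.18 (adjusted p = 0.767). Ndufa4, counted under complex I by its name and known as a complex IV subunit, stood at 0.31 ± 0.11 (adjusted p = 0.0670).

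**Figure D4:**
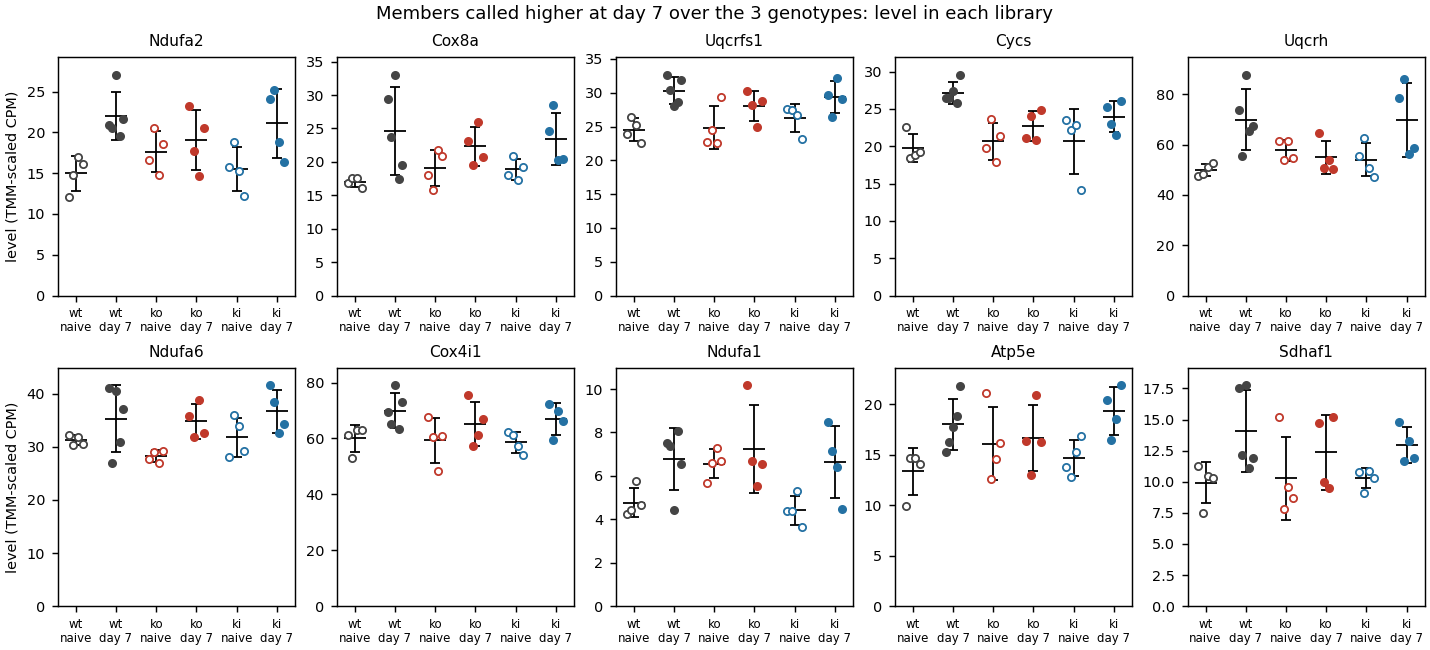
Level of the 10 members called higher at day 7 over the 3 genotypes (y axes, TMM-scaled CPM, from 0) in each library by genotype and stage (x axes), with open points for naive and filled points for day 7 and bars for the mean ± SD. Wt stages are apart for Cycs, Uqcrh, Uqcrfs1, Ndufa2, Cox4i1 and Atp5e, and ko stages overlap for each of the 10 except Ndufa6.

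Promoters of 3 members that rose and of Sdha, which did not, are shown because they carry the letters of the motifs known for this gene class. Each runs from 150 bases before to 10 bases after the RefSeq start (GRCm38.p6), all on the minus strand, 5′ to 3′, with motif matches in capitals. The motifs searched on both strands were CGCANGCG for NRF-1, CCGGAAGT for the ETS family (ACTTCCGG on the other strand) and AAGATGGC for YY1, and none of these overlaps another in the 4 stretches. They lie at chr6:50566560-50566719 for Cycs, chr4:116075061-116075220 for Uqcrh, chr19:7217607-7217766 for Cox8a and chr13:74350231-74350390 for Sdha.
Cycs: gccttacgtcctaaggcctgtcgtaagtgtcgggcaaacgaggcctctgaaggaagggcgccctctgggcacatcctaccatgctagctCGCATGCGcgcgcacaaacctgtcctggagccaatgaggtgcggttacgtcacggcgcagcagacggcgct
Uqcrh: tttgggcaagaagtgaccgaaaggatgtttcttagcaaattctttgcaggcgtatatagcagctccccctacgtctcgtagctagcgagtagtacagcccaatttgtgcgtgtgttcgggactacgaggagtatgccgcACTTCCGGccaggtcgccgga
Cox8a: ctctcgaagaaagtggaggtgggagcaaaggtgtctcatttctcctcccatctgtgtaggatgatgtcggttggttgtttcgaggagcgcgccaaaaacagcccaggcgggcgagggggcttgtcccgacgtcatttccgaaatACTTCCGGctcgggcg
Sdha: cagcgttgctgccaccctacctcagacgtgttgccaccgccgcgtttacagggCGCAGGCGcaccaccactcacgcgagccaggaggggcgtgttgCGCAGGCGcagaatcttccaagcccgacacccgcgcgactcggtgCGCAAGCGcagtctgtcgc

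Cycs holds an NRF-1 match that begins 61 bases before the start, Uqcrh an ETS match 11 bases before it, Cox8a an ETS match 6 bases before it, and Sdha 3 NRF-1 matches 97, 54 and 9 bases before it. A match is a description of the letters and not a bound site. Promoter windows of 300 bases were at hand for 72 of the 90 members. An NRF-1 match was in 38.9% of them (28 of 72), against 20.5% of 8909 tested protein-coding genes and 9.22% of 27025 windows of that length in the table. The ETS match was in 6.94% of member windows, against 10.01% and 4.31%, and the YY1 match in 12.5%, against 5.70% and 3.19%. Of the 8 called members with a window, 2 held NRF-1, 2 held ETS and 0 held YY1 matches. Ndufb8, described below, holds a YY1 match 39 bases after its start.

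Transcript length moved with the stage change and was measured beside it. The tested members have short messages: their longest coding transcripts had a median of 936.5 bases, against 3132 for the other 11123 tested protein-coding genes. Among these other genes, the 128 of at most 600 bases had a median log2 fold change of 0.25 at day 7 over the genotypes and 32.8% called higher, and the 14 members of that length had 0.23 with 6 called. From 601 to 800 bases the medians were 0.10 for other genes and 0.12 for 20 members, with 13.95% of other genes and 1 member called higher. From 801 to 1000 bases they were 0.08 and 0.07 for 10 members, with 13.1% of other genes and 0 members called. The members' share called was 42.9% at up to 600 bases, above that of other genes. It was 5.0% and 0.0% in the next ranges, below that of other genes. Above 1000 bases the other 10564 genes had a median of -0.01 and 4.91% called higher, and the 38 members had 0.006 with 3 called (7.9%). None of these differences in share was tested. The medians of members thus stood close to those of other genes of their length. Cytosolic ribosomal protein genes were not taken out of these other genes, and their part in the values by length was not tested. When a smooth trend of the change on length was removed in the model, an alternative chosen after seeing the data, 5.13% of genes were called higher and 5 members (6.10%): Ndufa2, Sdhaf1, Uqcrfs1, Cox8a and Cycs (adjusted p 0.0276, 0.0439, 0.0273, 0.0361 and 0.0127). Ndufa1, Ndufa6, Uqcrh, Cox4i1 and Atp5e missed the threshold there (0.153, 0.0898, 0.0793, 0.114 and 0.218). The median over members became 0.04. With GC content removed too, where 5.42% of all genes were higher and 3.9% lower, those 5 were higher, Ndufb7 fell by 0.23 on the log2 scale (adjusted p = 0.0383), and the median was 0.03.

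**Figure D5:**
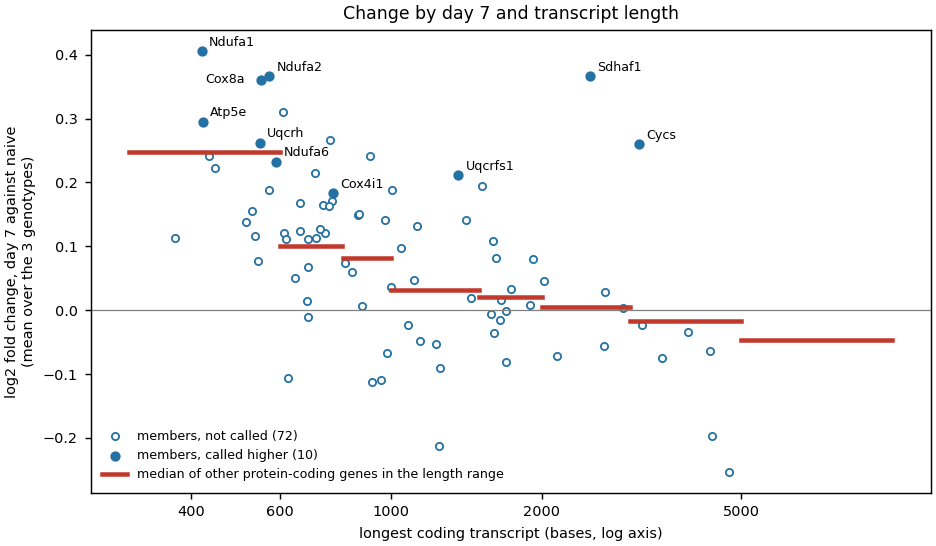
Log2 fold change of day 7 against naive over the 3 genotypes (y axis) against the longest coding transcript in bases (x axis, log) for the 82 tested members, with filled points for the 10 called higher and red bars for the median of the other protein-coding genes in each length range. The median of the other genes falls from 0.25 at up to 600 bases to -0.05 above 5000 bases, and Cycs, Sdhaf1 and Uqcrfs1 stand above it at over 1000 bases.

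Other measures that moved with stage were these. The share of counts on ribosomal-RNA-like genes was 20.5% to 23.2% in wt naive and 24.3% to 27.8% in wt day 7 libraries, 23.6% to 25.8% and 21.9% to 32.4% in ko, and 22.7% to 24.1% and 25.1% to 28.5% in ki libraries. Median depth was 7679751 and 20072883 counts in the wt naive and day 7 groups, 27409519 and 19793440 in ko, and 28165344 and 17901227 in ki. Cell-cycle genes rose, with 10 of 16 called and a median log2 fold change of 1.17 (Ccna2 1.6, Birc5 1.23, Rrm2 1.36 and Mki67 1.27; edgeR adjusted p 0.000738, 0.00119, 0.00204 and 0.00892), and 58 of 76 cytosolic ribosomal protein genes rose with a median of 0.19 (Rps6 0.27, Rps18 0.26, Rpl17 0.20 and Rps15a 0.31). The part of each of these in the change of the members was not tested. In the marker lists, 0 of the 10 CD4 T cell markers were called by edgeR (3 at an unadjusted p under 0.05), and of the markers of cytotoxic cells Klrd1 fell by 1.003 and Prf1 rose by 0.39 on the log2 scale (adjusted p 0.000338 and 0.0182), in a list that summed to 27.4 to 52.1 CPM. The red cell and platelet markers summed to 0.0 to 10.3 CPM.

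Taken 1 genotype at a time, calls were few. In wt cells 2 of 82 members rose, Uqcrh and Cycs, and 0 fell, where 1.18% of all genes were called higher and 0.966% lower. At up to 1000 bases, 3.58% of the other protein-coding genes and 1 of 44 members were called higher in wt cells. In ko cells 0 members were called where 0.408% of all genes were, and in ki cells 0 where 2.02% were. At an unadjusted p under 0.05, 16 members were higher and 0 lower in wt cells, where 7.77% of all genes were higher and 7.28% lower. In ko cells 4 were higher and 1 lower, against 6.03% and 6.81%, and in ki cells 12 and 1, against 7.88% and 7.23%. Counting both directions, the members' share in ki cells (15.9%) was near that of all genes (15.1%), and in ko cells it was below it (6.10% against 12.8%). DESeq2 called 4 members in wt, 0 in ko and 2 in ki cells, where it called 3.39%, 1.51% and 3.39% of all genes. Limma voom called 4, 0 and 4, against 3.51%, 0.109% and 4.9%, so its share of the members in ki cells was near that of all genes. The median log2 fold change of the members was 0.09, 0.07 and 0.06 in wt, ko and ki cells.

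Stages without overlap give a second view that does not use the model. In wt cells 7 members were higher in every day 7 library (Atp5e, Cox4i1, Cycs, Ndufa2, Ndufb11, Uqcrfs1 and Uqcrh) and 0 lower, where 2.94% of all genes were higher and 2.92% lower. In ko cells 5 were higher (Cox6c, Cox7a2, Ndufa6, Ndufb3 and Uqcr10) and 0 lower, against 2.43% and 2.64%. In ki cells 4 of 82 were higher (Ndufa4, Ndufa7, Ndufb10 and Sdhaf1), a share near the 4.7% of all genes. Another 2 were lower there (Ndufc1 and Sdha), a share below the 6.33% of all genes. The names differed between genotypes, and no member was in more than 1 of these sets. Uqcr10, a small complex III subunit, was at 8.51, 8.22, 7.60 and 7.38 CPM in ko naive and 12.4, 12.05, 15.001 and 9.79 CPM in ko day 7 libraries (log2 0.64 ± 0.19, edgeR adjusted p = 0.112). Ndufa7, a complex I accessory subunit, was at 10.9, 9.50, 11.8 and 10.6 CPM in ki naive and 15.6, 15.9, 15.1 and 13.9 CPM in ki day 7 libraries (0.49 ± 0.15, adjusted p = 0.0837). Both are gaps without overlap that did not pass the test over all genes.

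Genotype did not move any member past the threshold. Knock-out against wild-type gave 0 of 82 members in naive cells, where 0.0204% of all genes were called, and 0 at day 7, where 0.0476% were. Knock-in against wild-type gave 0 in naive cells, where 0.0136% were called, and 0 at day 7, where 0.0% were. DESeq2 also called 0 members in these 4 comparisons, where it called 0.109%, 0.524%, 0.034% and 0.0% of all genes in turn, and limma voom 0, against 0.0204%, 0.0136%, 0.0272% and 0.0%. At an unadjusted p under 0.05 there were 1, 6, 3 and 2 members (1.22%, 7.32%, 3.66% and 2.44%), where all genes gave 7.55%, 9.45%, 2.26% and 4.65%. Few genes of any kind were called in these comparisons. The median log2 difference of the members was -0.02 and -0.06 for ko and 0.02 and -0.02 for ki, naive and day 7 in turn. Members went both ways around these medians, with 26 of 82 positive for ko at day 7. Each comparison at a stage shares the wt libraries of that stage with the other.

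The smallest p among members of each complex in ko against wt at day 7 belonged to Ndufb8, Sdhb, Sdhaf3, Uqcrh, Cox7c, Atp5d and Cycs. Ndufb8, a complex I accessory subunit, was at 14.3, 11.4, 9.56, 11.3 and 10.8 CPM in wt and 16.1, 14.9, 16.5 and 14.2 CPM in ko day 7 libraries. These overlapped by 1 wt library (log2 0.43 ± 0.13, edgeR adjusted p = 0.198). Sdhaf3 was at 6.20 ± 1.82 and 3.77 ± 1.34 CPM (SD, n = 5 and 4; log2 -0.77 ± 0.24, edgeR adjusted p = 0.249). Uqcrh and Cycs, which rose in wt cells, differed by -0.36 ± 0.12 and -0.26 ± 0.11 between ko and wt at day 7 (adjusted p = 0.283 and 0.446). For Sdhb, Cox7c and Atp5d the differences were -0.13, -0.27 and -0.16 (adjusted p = 0.703, 0.537 and 0.542).

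In naive cells, the ko against wt values with the smallest p in each complex were 0.45 for Ndufa1, -0.09 for Sdha, -0.21 for Sdhaf3, 0.21 for Uqcrh, 0.28 for Cox5b, 0.34 for Atp5k and 0.07 for Cycs (edgeR adjusted p 0.536 to 0.948). Cox5b was the clearest of these, at 26.6 ± 2.44 CPM in wt and 32.2 ± 2.33 CPM in ko naive libraries (SD, n = 4 each; SE of the log2 difference 0.11, edgeR adjusted p = 0.536). For ki against wt in naive cells they were -0.42 for Ndufb9, 0.04 for Sdha, -0.05 for Sdhaf2, 0.11 for Uqcrfs1, 0.19 for Cox6b1, 0.33 for Atp5l and 0.09 for Cycs. Ndufb9, a complex I subunit, was at 10.8 to 22.01 CPM in ki and 17.5 to 21.4 CPM in wt naive libraries, within which the ki libraries spread widely. At day 7 the ki values were 0.35 for Ndufa7, -0.09 for Sdha, -0.33 for Sdhaf3, -0.19 for Uqcrb, 0.17 for Cox5b, 0.15 for Atp5d and -0.18 for Cycs. For these ki values the adjusted p was 0.9988 or higher.

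Whether the stage change itself differed by genotype was tested as an interaction. For ko against wt 0 members were called, with 0.0% of all genes called, and for ki against wt 0, again with 0.0%. At an unadjusted p under 0.05 there were 4 and 3 members (4.88% and 3.66%), at or below the 7.79% and 3.8% of all genes. DESeq2 called 0 members in both, with 0.0068% of all genes in each, and limma voom 0, with 0.0% and 0.0136%. Uqcrh had the smallest p for ko: its stage change was 0.49 in wt and -0.07 in ko cells, a difference of -0.56 ± 0.18 (edgeR adjusted p = 0.505). Uqcr10 went the other way, at -0.03 in wt and 0.64 in ko cells, a difference of 0.67 ± 0.26 (edgeR adjusted p = 0.552). For ki, Ndufa7 differed by 0.58 ± 0.21 (edgeR adjusted p = 0.999). The stage changes of Uqcrh and Cycs in wt cells are therefore not shown to differ from those in ko or ki cells.

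Genes that work beside the subunits were read from lists over the same mean stage contrast. Of 42 tested assembly factors, 1 rose and 1 fell: Uqcc3, for complex III, at 0.28, and Surf1, for complex IV, at -0.24 (edgeR adjusted p 0.0361 and 0.0378), with a list median of -0.02. Of 10 tested subunits encoded by mitochondrial DNA, mt-Nd2 rose by 0.16 (adjusted p = 0.0290) and the median was 0.07. Their summed level was 6857 ± 904 and 6681 ± 525 CPM in wt (n = 4 and 5), 5957 ± 237 and 6676 ± 810 in ko, and 6587 ± 221.4 and 6648 ± 623 in ki cells (n = 4 each). Against the summed nuclear members this was a ratio of 2.58 ± 0.344 and 2.37 ± 0.322 in wt, 2.25 ± 0.0630 and 2.44 ± 0.324 in ko, and 2.46 ± 0.102 and 2.37 ± 0.288 in ki cells, with no shared direction. Among 16 other electron transport and exchange genes, the ADP/ATP carrier Slc25a4 rose by 0.26 (adjusted p = 0.00879), and Gpd2, the mitochondrial glycerol-3-phosphate dehydrogenase that feeds electrons to ubiquinone, fell by 0.79 on the log2 scale (adjusted p = 4.9e-07). The Gpd2 change was -0.78, -0.78 and -0.82 in wt, ko and ki cells.

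Of 16 TCA cycle genes, 0 were called by edgeR, and 0 had an unadjusted p under 0.05; the most abundant, Ogdh and Mdh2, stood at 0.05 and 0.05. Of 15 tested regulators of respiratory genes, Myc rose by 0.17 (adjusted p = 0.0429), while Nrf1, which encodes the factor of the NRF-1 motif, fell by 0.15, Gabpb2, a partner of GABP, fell by 0.12, and Polg, the mitochondrial DNA polymerase, fell by 0.16 (adjusted p 0.00879, 0.0128 and 0.0151). Of 77 mitochondrial ribosomal protein genes 2 rose, Mrpl33 at 0.26 and Mrpl52 at 0.36 (adjusted p 0.00281 and 0.0112), with a median of 0.03. The members' median of 0.09 thus lay between those of the mitochondrial and the cytosolic ribosome, a comparison given as values with no test. All values from these lists were taken with no length trend removed. With that trend removed, the members' median was 0.04.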

How the data were processed

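Total RNA of sorted CD4 T cells was sequenced in 25 libraries. Per the labels' protocols, miRNeasy kits gave the RNA, which went through a SMARTer Pico kit (stranded, total RNA) and was read in pairs on a NovaSeq. The table the authors deposited gives raw counts for each Ensembl gene and library. The submitters' processing notes name mm10 and DESeq2. Aligner, counter, strand setting and annotation are not given in the sources used here. Values of genes that overlap another gene, or have close pseudogenes, are uncertain. The submitters' labels put each library in its group.

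Symbols and lengths came from GENCODE M21 on mm10 (45229 of 46078 gene IDs had a symbol) and promoters from RefSeq (GRCm38.p6). Genes were kept by filterByExpr over the 6 groups (minimum count 10, minimum total count 15). After TMM scaling, edgeR's quasi-likelihood model took all libraries, a mean for each of the groups, and nothing else. 10 comparisons were tested, two-sided, with Benjamini-Hochberg adjustment over all 14703 genes at 0.05. Where no tool is named, an adjusted p-value is edgeR's. Levels are TMM-scaled CPM, as mean ± SD over libraries. Of the 40 pairs of libraries within a group none agreed within sampling noise (lowest chi-square per degree of freedom 5.40). The procedure was also run on simulated counts that held no library effects other than depth. Those runs could not speak to such effects in these data, and their outcome is not used here.

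The members and the gene lists were chosen with earlier results of these data known. Named genes were the members called in any comparison, in each complex the 2 highest and the lowest level per kb, the 2 smallest p over the mean stage change and the smallest p in each genotype comparison, isoform families, Cycs, the 4 Sdh subunits, untested members, and up to 4 called genes per list. Other genes named were chosen after their values were seen. miR-150 seed matches were not analysed here.

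Alternatives were no filter or a filter at 5 CPM in 4 or more libraries, DESeq2, RLE factors in edgeR, voom in limma with quality weights, a fit of the groups compared alone, a table without genes of the mitochondrial genome, rRNA and haemoglobin, a covariate for library number, a block on sets of 4 library numbers, and leaving out each library. Removing a lowess trend (span 0.3) on length, or on length and GC content, was added after seeing the data. Python 3.11.15 (pandas 2.3.3, matplotlib 3.10.9) and R 4.3.3 (DESeq2 1.42.0, limma 3.58.1, edgeR 4.0.16) were used.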

Additional observations from a re-analysis of the deposited data

Results flagged for a closer look

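Each of these values stood far from the other libraries of its group. Chance alone marks about 1 in 20 groups by this criterion, and 6 of the 102 groups looked at were marked. Of these, 3 concern the first wt naive library, whose summed members were at 2754 CPM beside 2629 CPM for the nearest other library, with summed complex III at 262 CPM beside 242 CPM and Atp5e at 9.89 CPM beside 14.1 CPM. The first ki day 7 library had summed complex I at 936 CPM beside 849 CPM. The fourth ki naive library had Cycs at 14.1 CPM beside 22.1 CPM. The third wt day 7 library had Ndufa2 at 27.1 CPM beside 21.7 CPM.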

How the results depend on the processing

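No called member changed direction under any alternative run. The number of members called in wt cells by day 7 was 2, and it was 4 with DESeq2, 4 with limma voom, 5 with no filter, 1 with the length trend removed, and 0 to 5 on leaving out 1 library. It was 0 without wt day 7 library 1 or 3 or wt naive library 2, 3 or 4, 1 without wt naive library 1 and 5 without wt day 7 library 4. In ki cells the number was 0, and it was 2 with DESeq2, 4 with limma voom, 2 with no filter, 1 each with the stricter filter, with only the groups compared and without mitochondrial, ribosomal RNA and haemoglobin genes, and 0 to 2 on leaving out 1 library (2 without ki day 7 library 3, 1 without ki naive library 4). Over the mean of the genotypes the 10 members called became 5 with the length trend removed and 6 with length and GC removed, and 6 (without ki day 7 library 1) to 15 (without wt day 7 library 4) on leaving out 1 library. With no filter 1 member was called for ko against wt at day 7 and 1 for the ko interaction. The median log2 change of members over the mean was 0.028 (0.09 in the reported fit) and in ki cells -0.00205 (0.06) with length and GC removed. The median of ki against wt in naive cells was 0.0433 with library number as a covariate and 0.0507 with the block on library numbers, and that of ko against wt in naive cells ran from -0.0322 to 0.0348 on leaving out 1 library, the highest without ko naive library 3. Medians per kb with the longest coding transcript were 18.01, 19.02, 4.198, 22.03, 32.4 and 38.8 CPM for complexes I and II, complex II assembly, complexes III and IV and ATP synthase, beside 11.8, 12.5, 3.11, 16.4, 25.7 and 16.4 with merged exons. The causes were not tested. Ndufa2, Cox8a, Uqcrfs1 and Cycs kept their call over the mean under all 10 alternatives and on leaving out each of the 25 libraries. Apart from the length fits given above, the calls over the mean that ended were Ndufa1 with limma voom (adjusted p = 0.0556) and with no filter (0.0601), Ndufa6 with limma voom (0.0598) and Atp5e with the block on library numbers (0.0631). The labels give no replicate number that groups share, so no fit by replicate pairs was made, and the block on sets of 4 consecutive library numbers was the nearest to one. What depth limits was not tested, and replicate spread exceeded sampling noise in all 40 pairs of libraries.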
